A study of Danio rerio with 14 samples.

Results

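Cytochrome P450 genes of families 1 to 4 were followed in whole zebrafish embryos that lack or keep a working mttp gene. The members were the rows of the deposited count table whose symbol begins with cyp, a family digit from 1 to 4 and a letter, which gave 54 of 36109 genes. Family 1 had 5 members, family 2 had 41, family 3 had 4 and family 4 had 4. The groups were mttp knockout embryos at 48 hpf (hours post fertilization; 3 libraries), siblings at 48 hpf (3), mttp knockout embryos at 24 hpf (4) and siblings at 24 hpf (4). The knockout had been made with CRISPR/Cas9, the siblings carried no treatment, and the labels do not say whether the siblings were wild type, heterozygous or a mixture, nor how many embryos went into a library. The Mttp protein transfers lipid to apolipoprotein B, the step that starts lipoprotein assembly in the layer around the yolk and later in gut and liver. The knockout embryos are called mutants here.

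P450 enzymes are haem proteins that insert an oxygen atom into a small lipid-soluble molecule. Families 1 to 3 are best known for clearing foreign compounds and for converting steroids, vitamin D and arachidonic acid, and family 4 for hydroxylating the far end of fatty acid chains. Most of them sit in the membrane of the endoplasmic reticulum and take electrons from P450 reductase or cytochrome b5. Family 1 genes are classical targets of the aryl hydrocarbon receptor (Ahr), a sensor of planar aromatic ligands. Fish carry several family 2 subfamilies that mammals lack, often as rows of neighbouring copies.

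The targeted gene was low in all mutant libraries. At 48 hpf mttp measured 11.4, 7.53 and 6.23 CPM in mutants, against 30.3, 19.3 and 38.5 CPM in siblings. At 24 hpf mttp measured 9.05, 7.90, 10.5 and 11.3 CPM in mutants, against 67.6, 67.3, 79.6 and 70.3 CPM in siblings. CPM are counts scaled to a library of 1000000 counts with the TMM factors of edgeR, and replicates are given in the order of their label numbers. Library totals ran from 29422983 to 46534187 counts. Replicate 3 of the 48 hpf siblings and replicate 2 of the 24 hpf siblings stood apart by a mitochondrial share of 0.696% and 0.847%, against 1.27% to 1.97% in the other 12 libraries. The counts of both low libraries stood apart as well, by the mean chi-square per gene between libraries of a group. Pairs with replicate 3 of the 48 hpf siblings gave 81.7 and 76.1, and the other sibling pair 15.9. Pairs with replicate 2 of the 24 hpf siblings gave 31.4 to 54.2, and the other sibling pairs 14.1 to 24.4. Where a call of a member or listed gene named below was lost or gained without both low libraries, the value without both stands beside it. Listed markers of brain and eye, epidermis, blood, endothelium, pronephros, gut, yolk syncytial layer and hatching gland were present. The liver gene fabp10a stayed between 0 and 1.60 CPM, and the gut gene cdhr5a was at 0 in all 24 hpf libraries. In such bulk samples fewer cells of a type and less RNA per cell cannot be told apart. Nothing in the labels says that replicates were separate clutches, so the p-values reflect only how these libraries varied, which may be technical.

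Of the 54 members, 46 had enough counts to be tested and 8 did not, all 8 of them in family 2. The 8 untested members held from 0 (cyp2k31) to 42 counts (cyp2k21) over all 14 libraries, and the tested member with the fewest was cyp2k17 with 74. At 48 hpf 6 tested members were higher and 2 lower in mutants at an adjusted p under 0.05 in edgeR's quasi-likelihood test, or 17.4% of them, beside 6.06% of all 24424 genes tested. At 24 hpf 3 were higher and 6 lower, or 19.6%, beside 3.82% of all genes. By direction, 4.26% of all genes were called higher and 1.80% lower at 48 hpf, and 1.50% higher and 2.33% lower at 24 hpf. The median log2 fold change of the tested members was 0.29 at 48 hpf and -0.033 at 24 hpf, beside -0.0046 and -0.0028 for all genes tested. Of the lower calls at 48 hpf, that of cyp4v8 is of a gene that entered the test only through the siblings of 48 hpf. Members moved in both directions at each stage. In all, 12 members were called at one stage or the other, and 5 of them (cyp2aa3, cyp2aa7, cyp2aa9, cyp3c1 and cyp3c3) at both. With scaling by library size only, the calls over all genes at 24 hpf were 550 higher and 313 lower in place of 366 and 568, and those over the members 3 and 5.

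**Figure D1:**
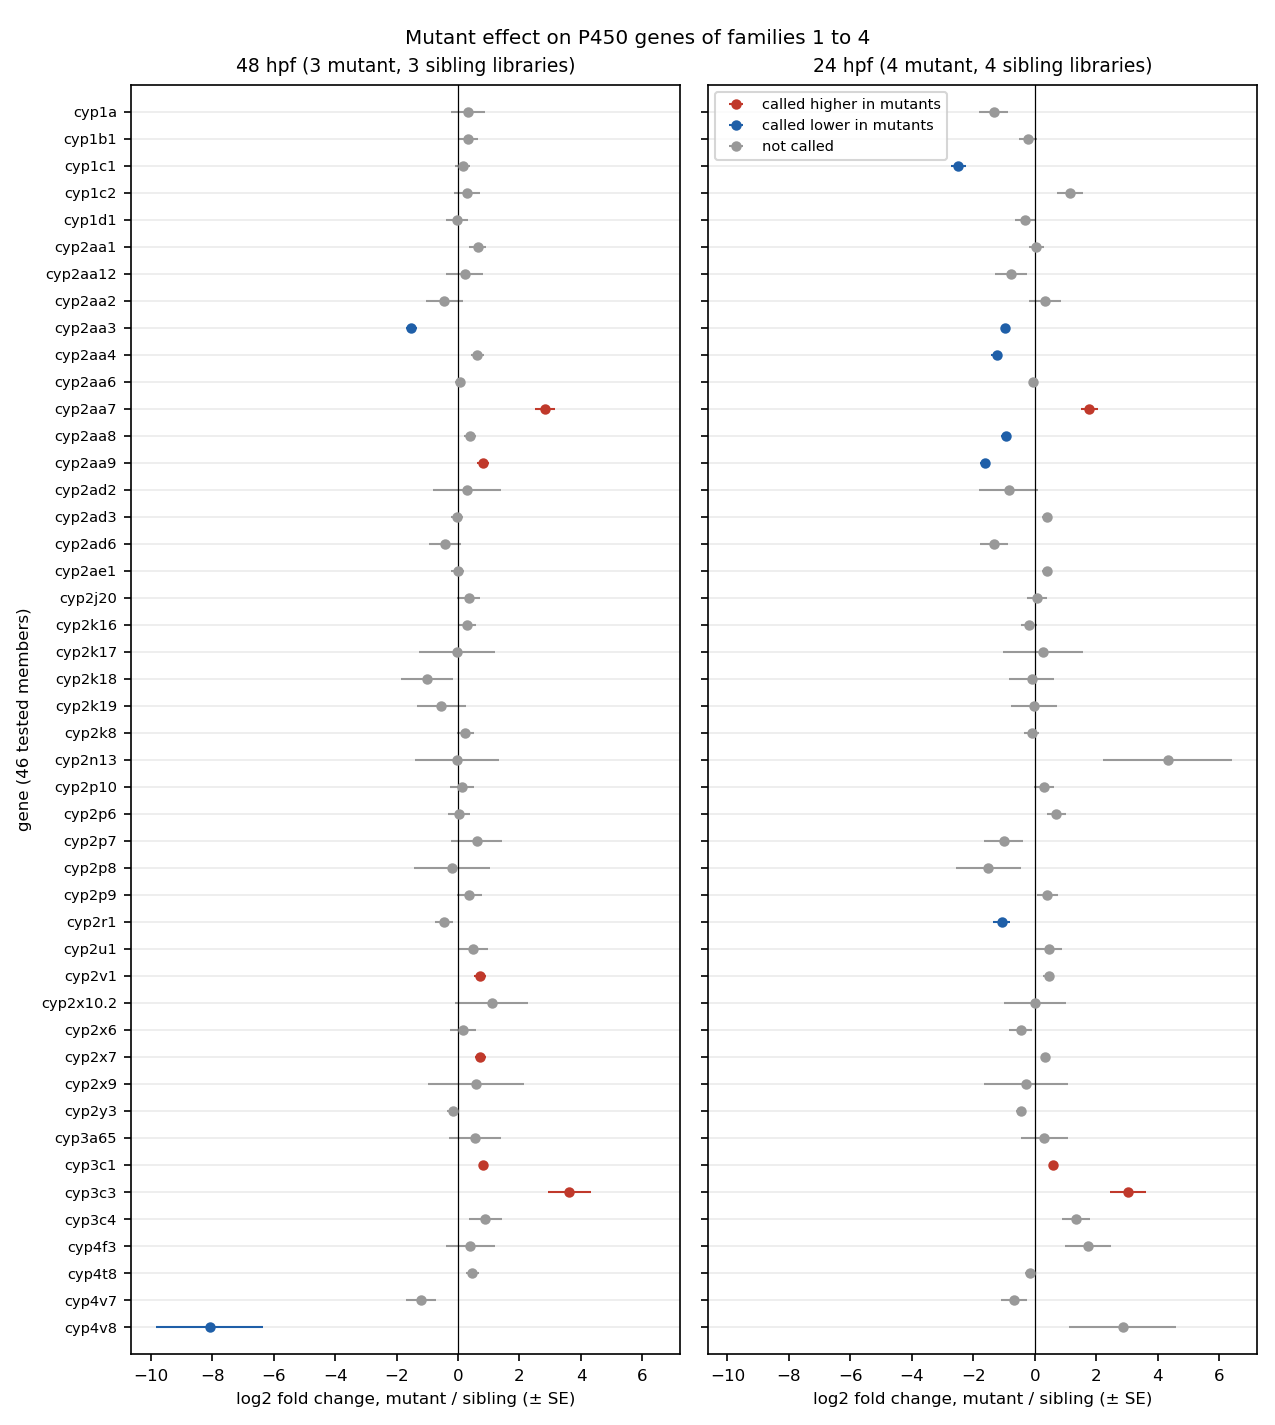
Log2 fold change of mutants against siblings (x axis, ± SE) for each of the 46 tested members (y axis), at 48 hpf on the left and 24 hpf on the right; red is called higher, blue called lower, grey not called. Most members lie near 0, cyp3c3 and cyp2aa7 stand to the right at both stages, cyp2aa3 to the left at both, and cyp2aa9 changes side; the fitted value of cyp4v8 at 48 hpf rests on mutant libraries with 0 counts and depends on the prior count.

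In family 1 only cyp1c1 was called between mutants and siblings, at 24 hpf, where 3.82% of all genes were called. At 48 hpf edgeR, DESeq2 and limma-voom each called 0 of the 5 genes, and 0 had an unadjusted p under 0.05. There edgeR called 6.06% of all genes, and with 5 genes a count of 0 does not set the family apart. The gene cyp1c1 encodes a fish enzyme that Ahr ligands induce. At 48 hpf cyp1c1 measured 8.06, 9.03 and 9.19 CPM in mutants, against 6.71, 8.91 and 8.10 CPM in siblings, and the groups overlapped (0.15 ± 0.25, adjusted p = 0.8285; log2 fold change ± SE). At 24 hpf cyp1c1 measured 1.54, 1.40, 2.07 and 1.50 CPM in mutants, against 13.5, 9.87, 6.70 and 6.51 CPM in siblings. Every 24 hpf mutant library lay below every sibling library of that stage, and cyp1c1 fell in mutants (-2.48 ± 0.24, adjusted p = 4.19e-06). The difference between the effects, 48 minus 24 hpf, was 2.63 ± 0.34, adjusted p = 2.90e-04; 3.17% of all genes were called in that comparison, 2.43% as positive and 0.737% as negative differences. Of all members 4 were called there, all as positive differences. Scaling by library size only called 460 genes higher and 230 lower in place of 594 and 180, and the same number of members, 4 higher. The fall at 24 hpf was called in all 24 alternatives, with log2 fold changes from -2.62 to -2.23.

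A close neighbour in the RefSeq order, cyp1c2, which Ahr ligands also induce, was not called at either stage. At 24 hpf cyp1c2 measured 0.706, 0.933, 1.42 and 2.16 CPM in mutants, against 0.572, 0.236, 1.12 and 0.426 CPM in siblings, with overlapping groups (1.15 ± 0.43, adjusted p = 0.167). At 48 hpf cyp1c2 measured 7.31, 5.54 and 4.57 CPM in mutants and 6.04, 3.64 and 4.54 CPM in siblings (0.29 ± 0.44, adjusted p = 0.803). Whether the changes of cyp1c1 and cyp1c2 differ was not tested.

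The gene cyp1a, the most widely used marker of Ahr activity in fish, spread widely among the siblings of 24 hpf. It measured 24.3, 12.9, 25.8 and 36.0 CPM in mutants of 24 hpf, against 88.0, 114, 28.2 and 19.0 CPM in siblings of 24 hpf. Sibling replicates 1 and 2 were above every mutant library and sibling replicate 4 below 3 of the 4, and the difference was not called (-1.33 ± 0.46, adjusted p = 0.134). Of the 24 alternatives only the fit without sibling replicate 4 called it lower (-1.64, adjusted p = 0.0430). Over the alternatives the adjusted p ran from 0.0430 to 0.472. At 48 hpf cyp1a measured 14.7, 13.2 and 20.4 CPM in mutants and 9.45, 7.74 and 21.1 CPM in siblings (0.32 ± 0.54, adjusted p = 0.827), and the highest sibling library was replicate 3. Replicates 1 and 2 held the 2 highest sibling values of 24 hpf for cyp1a and for cyp1c1.

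The remaining family 1 genes were not called in mutants at either stage. The gene cyp1b1, whose human counterpart is mutated in congenital glaucoma, measured 10.7, 11.1 and 9.53 CPM in mutants and 9.45, 6.76 and 8.86 CPM in siblings at 48 hpf (0.32 ± 0.33, adjusted p = 0.677). At 24 hpf cyp1b1 measured 1.22, 2.22, 2.07 and 2.45 CPM in mutants and 3.40, 2.66, 2.30 and 0.912 CPM in siblings (-0.22 ± 0.31, adjusted p = 0.826). The gene cyp1d1, a family 1 gene that zebrafish keep and humans have as a pseudogene, measured 12.6, 6.56 and 5.75 CPM in mutants and 13.8, 5.79 and 5.92 CPM in siblings at 48 hpf (-0.032 ± 0.37, adjusted p = 0.980). At 24 hpf its values were 7.99, 5.86, 3.86 and 4.58 CPM in mutants and 9.82, 5.62, 5.83 and 6.14 CPM in siblings (-0.30 ± 0.33, adjusted p = 0.749). In 3 of the 4 groups replicate 1 was far above the others for cyp1d1, and in 24 hpf mutants it was the highest as well.

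**Figure D2:**
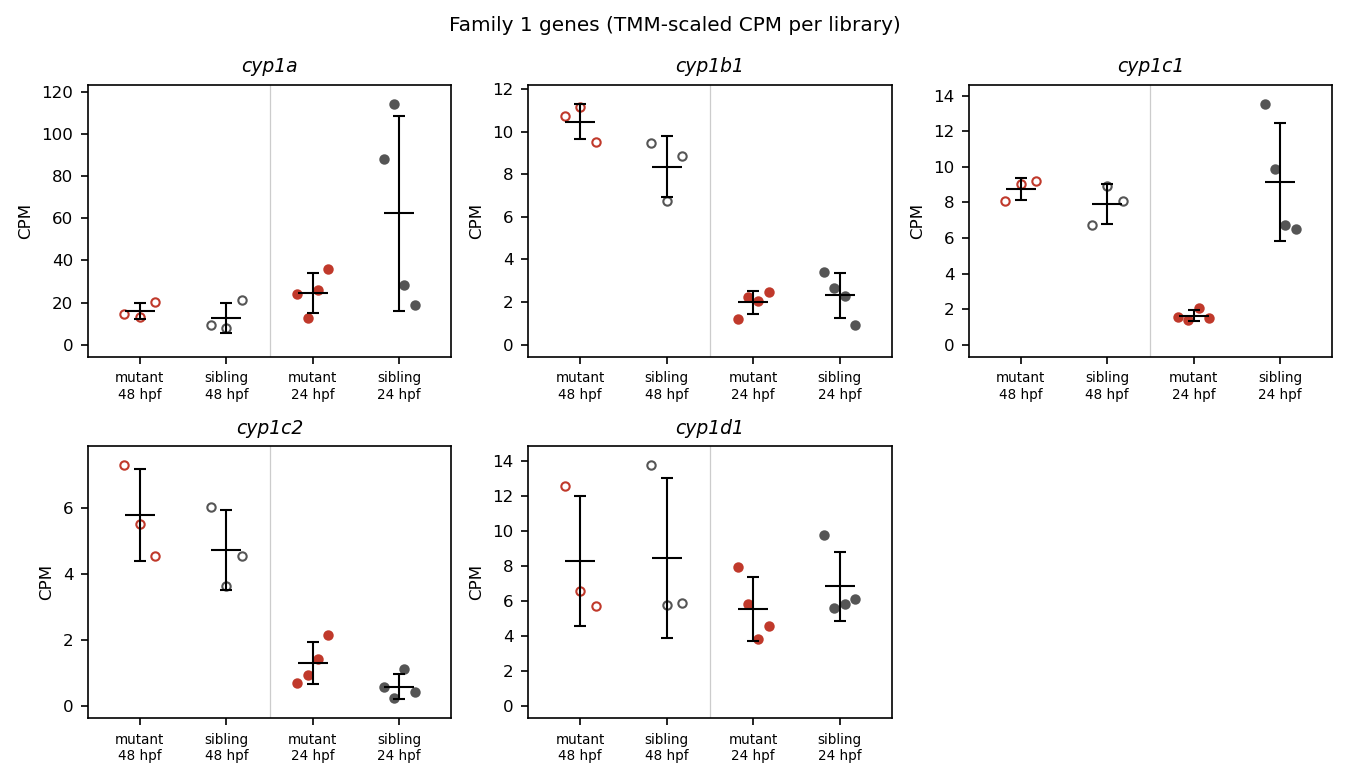
CPM of the 5 family 1 genes in each library (points), with the group mean and SD (bars); mutants are red and siblings grey, open points are 48 hpf and filled points 24 hpf. The 4 mutant libraries of 24 hpf sit at 1.40 to 2.07 CPM for cyp1c1, below all siblings, while cyp1a spreads from 19.0 to 114 CPM among the siblings of 24 hpf.

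Of 15 genes of the Ahr pathway, the regulators and other targets of the same receptor, 14 were tested. Of these edgeR called 0 at 48 hpf and 0 at 24 hpf, beside 6.06% and 3.82% of all genes. At an unadjusted p under 0.05 there were 2 and 5; DESeq2 called 0 at 48 hpf and 3 at 24 hpf, and limma-voom 0 and 1. The median log2 fold change of the list was -0.039 at 48 hpf and -0.12 at 24 hpf. At 24 hpf 8 of the tested genes had values below 0 and 6 above, from -1.20 to 0.64. The sum of the list was 536 to 573 CPM in mutants and 600 to 649 CPM in siblings at 24 hpf. At 48 hpf it was 527 to 548 CPM in mutants and 534 to 556 CPM in siblings. These sums were not tested and are not a measure of receptor activity. The list holds ptges3a and ptges3b, which also stand in the eicosanoid list below, so these lists are not independent. For ahr2, the main receptor of this pathway in zebrafish, mutants differed from siblings by -0.0045 ± 0.10, adjusted p = 0.991, at 48 hpf and 0.33 ± 0.091, adjusted p = 0.0560, at 24 hpf, and neither passed the test. Its target ahrra, a repressor of the receptor, measured 0.962, 0.671, 0.699 and 1.11 CPM in mutants and 0.922, 0.828, 0.776 and 0.669 CPM in siblings at 24 hpf (0.11 ± 0.39, adjusted p = 0.945).

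In family 2 most of the called genes lie in one row of neighbouring genes, the cyp2aa array. This subfamily belongs to fish, and in the RefSeq order its 10 members in the count table lie in the sequence cyp2aa12, cyp2aa6, cyp2aa7, cyp2aa11, cyp2aa4, cyp2aa8, cyp2aa9, cyp2aa1, cyp2aa2 and cyp2aa3. Of 9 tested members, 3 were called at 48 hpf (cyp2aa7 and cyp2aa9 higher, cyp2aa3 lower), or 33.3%, beside 6.06% of all genes. At 24 hpf 5 were called (cyp2aa7 higher, cyp2aa3, cyp2aa4, cyp2aa8 and cyp2aa9 lower), or 55.6%, beside 3.82% of all genes. The untested member, cyp2aa11, held 3 counts in all. How reads that map to several places were treated is not given in the sources used here, so reads of near-identical copies could have been counted for either gene or for none. The gene cyp2ae1 follows the array and was not called. The RefSeq span of tut4 overlaps those of cyp2aa12, cyp2aa6, cyp2aa7, cyp2aa11 and cyp2aa4.

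The gene cyp2aa7 rose in mutants at both stages. At 48 hpf cyp2aa7 measured 21.0, 39.3 and 35.8 CPM in mutants, against 5.73, 2.60 and 5.07 CPM in siblings (2.84 ± 0.32, adjusted p = 2.73e-05). At 24 hpf cyp2aa7 measured 19.6, 21.6, 15.5 and 21.5 CPM in mutants, against 6.36, 3.16, 7.97 and 5.29 CPM in siblings (1.78 ± 0.27, adjusted p = 6.97e-04). The groups did not overlap at either stage, and both calls held in all 24 alternatives. Its effect was not shown to differ between stages (1.06 ± 0.41, adjusted p = 0.197, 48 minus 24 hpf).

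The gene cyp2aa3, at the far end of the array, fell in mutants at both stages. At 48 hpf cyp2aa3 measured 7.51, 7.45 and 6.54 CPM in mutants, against 20.2, 23.6 and 18.1 CPM in siblings (-1.52 ± 0.18, adjusted p = 4.63e-05). At 24 hpf cyp2aa3 measured 27.8, 31.1, 40.6 and 41.2 CPM in mutants, against 71.2, 50.1, 78.0 and 74.8 CPM in siblings (-0.96 ± 0.15, adjusted p = 8.13e-04). Mutant libraries lay below sibling libraries throughout, and both calls held in all 24 alternatives. The difference between stages was not called (-0.56 ± 0.23, adjusted p = 0.245).

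Between these, cyp2aa4, cyp2aa8 and cyp2aa9 fell in mutants at 24 hpf and were not low at 48 hpf. At 48 hpf cyp2aa9 measured 22.9, 26.0 and 17.3 CPM in mutants, against 13.7, 12.9 and 11.2 CPM in siblings, and rose (0.81 ± 0.20, adjusted p = 0.0240). At 24 hpf cyp2aa9 measured 14.1, 16.8, 24.8 and 23.4 CPM in mutants, against 75.3, 58.7, 51.9 and 57.1 CPM in siblings, and fell (-1.62 ± 0.18, adjusted p = 1.98e-05). The groups were separate at both stages, in opposite directions, and the effects differed by 2.43 ± 0.27, adjusted p = 6.74e-05 (48 minus 24 hpf). The rise at 48 hpf was not called without sibling replicate 2 (adjusted p = 0.0572) or 3 (adjusted p = 0.0779), without mutant replicate 1 (adjusted p = 0.0775) or 2 (adjusted p = 0.114), or without both libraries of low mitochondrial share (adjusted p = 0.0870), within an adjusted p range of 0.00543 to 0.114 over the alternatives.

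At 48 hpf cyp2aa4 measured 25.9, 25.0 and 20.8 CPM in mutants and 16.7, 20.9 and 8.95 CPM in siblings, with overlapping groups (0.63 ± 0.22, adjusted p = 0.112). At 24 hpf cyp2aa4 measured 27.9, 27.0, 35.8 and 28.0 CPM in mutants, against 77.9, 67.2, 59.3 and 75.4 CPM in siblings, and fell (-1.24 ± 0.19, adjusted p = 6.07e-04). Its effects differed between stages by 1.87 ± 0.29, adjusted p = 0.00127. The fit with a replicate block, an alternative, called cyp2aa4 higher at 48 hpf (adjusted p = 0.0287), and so did the fit without sibling replicate 2 (adjusted p = 0.0210).

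At 48 hpf cyp2aa8 measured 41.1, 53.2 and 27.4 CPM in mutants and 33.3, 31.8 and 27.6 CPM in siblings (0.39 ± 0.19, adjusted p = 0.283). Mutant replicate 3 was below all siblings there and the other 2 mutant libraries above them. The fit without mutant replicate 3 was the only alternative that called cyp2aa8 higher at 48 hpf (adjusted p = 0.0376). At 24 hpf cyp2aa8 measured 35.8, 38.7, 48.9 and 43.6 CPM in mutants, against 92.7, 65.9, 79.0 and 78.1 CPM in siblings, and fell (-0.92 ± 0.16, adjusted p = 0.00266). The effects differed by 1.31 ± 0.25, adjusted p = 0.00630. The falls of cyp2aa4, cyp2aa8 and cyp2aa9 at 24 hpf and these 3 differences between stages were called in all their alternatives.

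The other tested members of the array, cyp2aa12, cyp2aa6, cyp2aa1 and cyp2aa2, were called at neither stage. The gene cyp2aa6, which lies next to cyp2aa7, hardly varied at 24 hpf. It measured 13.3, 13.6 and 12.6 CPM in mutants and 15.9, 11.2 and 10.7 CPM in siblings at 48 hpf (0.059 ± 0.15, adjusted p = 0.893). At 24 hpf the values of cyp2aa6 were 12.0, 13.0, 13.1 and 14.1 CPM in mutants and 12.9, 13.2, 12.6 and 15.1 CPM in siblings (-0.046 ± 0.13, adjusted p = 0.928).

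**Figure D3:**
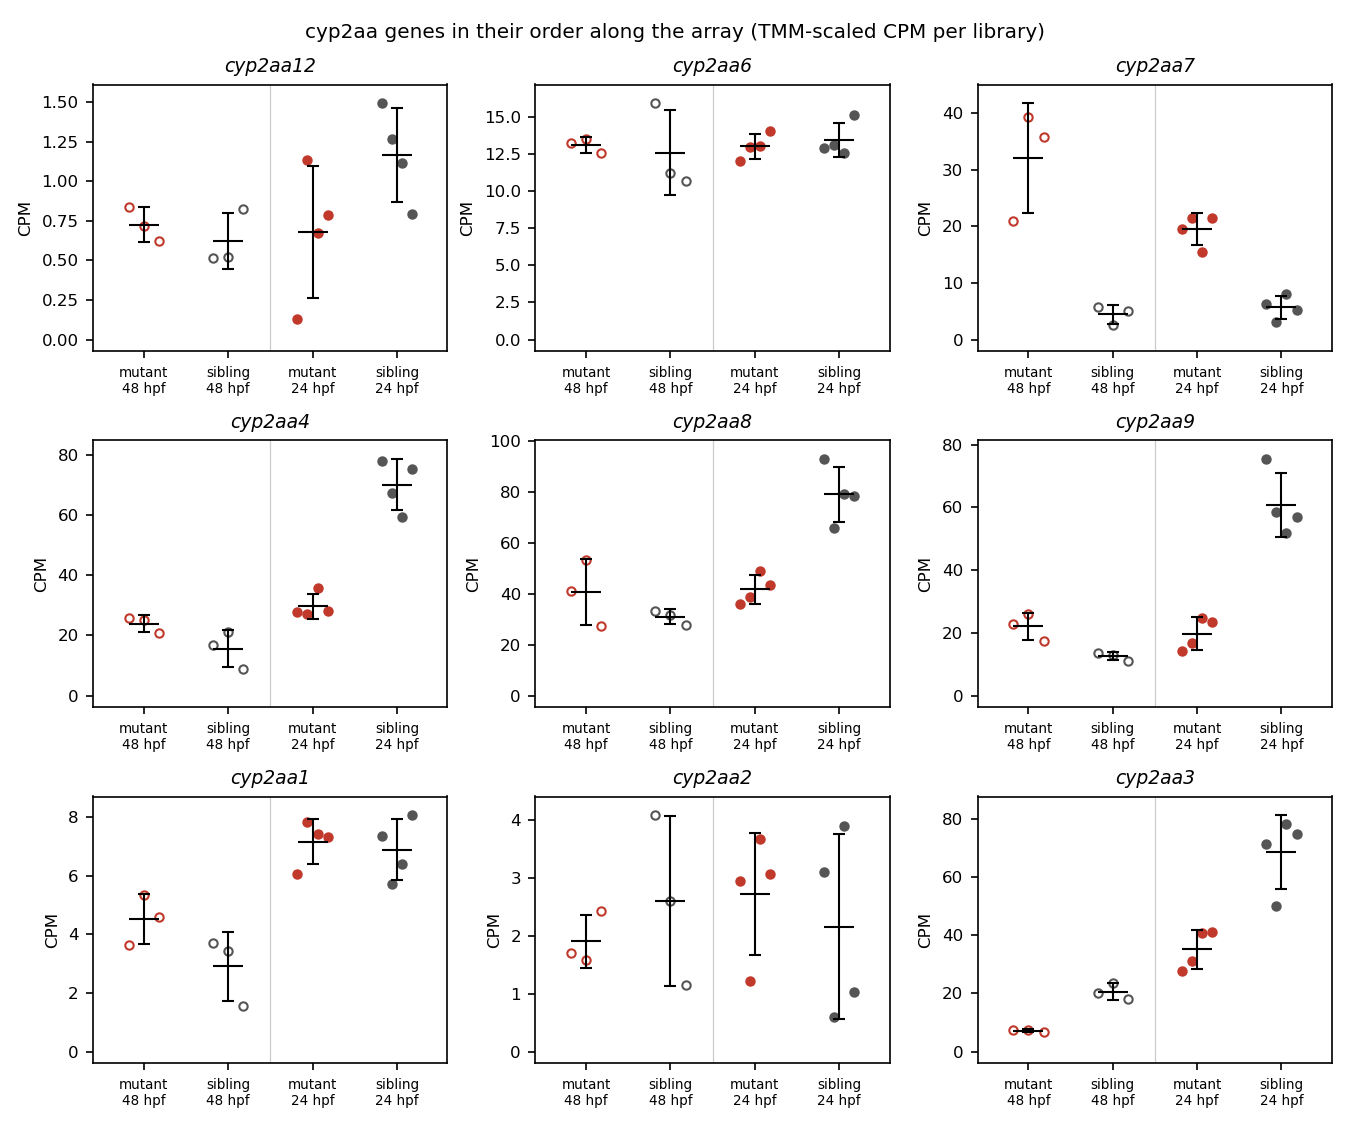
CPM of the 9 tested cyp2aa genes in each library, in their RefSeq order along the array (points; bars are mean and SD; mutants red, siblings grey, 48 hpf open, 24 hpf filled). For cyp2aa7 the mutants lie above the siblings at both stages, for cyp2aa3 below at both, and cyp2aa4, cyp2aa8 and cyp2aa9 are low in the 24 hpf mutants against siblings near 51.9 to 92.7 CPM.

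The composition of the array's RNA differed accordingly. Summed over the 10 genes, the array gave 146 ± 23.2 CPM in mutants and 103 ± 15.5 CPM in siblings at 48 hpf (mean ± SD, n = 3 each), and 169.5 ± 20.7 CPM in mutants and 308 ± 34.3 CPM in siblings at 24 hpf (n = 4 each). The share of these counts from cyp2aa7 was 22.0 ± 6.41% in mutants and 4.46 ± 1.86% in siblings at 48 hpf, and 11.7 ± 2.52% in mutants and 1.84 ± 0.610% in siblings at 24 hpf. The share from cyp2aa3 was 4.96 ± 0.574% in mutants and 20.1 ± 2.12% in siblings at 48 hpf. At 24 hpf it was 20.6 ± 1.61% in mutants and 22.2 ± 3.21% in siblings, groups that overlapped. These shares restate the gene values above and were not tested.

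Genes listed as markers of liver, gut and yolk syncytial layer (the tissue that takes up and passes on yolk) also differed between the groups. Single apolipoprotein genes made up a large part of each sum. In sibling replicate 1 of 24 hpf apoa4b.1 gave 872 of 1544 CPM for gut and apoa2 982 of 3670 CPM for liver. For the yolk syncytial layer apobb.1 gave 10050 of 17662 CPM. In that library cdx1b and chia.2, of the gut list, each measured 0.318 CPM. A sum therefore need not follow the tissue it is named for. At 24 hpf the summed level of 15 liver genes was 2145 to 2416 CPM in mutants and 3670 to 4360 CPM in siblings, with 8 of 14 tested genes lower. The sum of 14 yolk syncytial layer genes was 11634 to 14224 CPM in mutants and 15619 to 17662 CPM in siblings, with 3 of 13 tested genes lower and 2 higher. The sum of 14 gut genes was 1191 to 1284 CPM in mutants and 1439 to 1544 CPM in siblings, with 3 of 13 tested genes lower. At 48 hpf 4 liver genes were higher and 5 lower, 4 yolk syncytial layer genes higher and 4 gut genes higher, with none lower in the last 2 lists. The sums at 48 hpf were 2781 to 3512 CPM in mutants and 3174 to 3929 CPM in siblings for liver. For the yolk syncytial layer they were 11643 to 16306 CPM in mutants and 10320 to 13004 CPM in siblings, and for gut 1114 to 1158 CPM in mutants and 737 to 991 CPM in siblings. The defining liver gene fabp10a was low in all groups, within the range given above, and ahsg2 was at 0 in all 48 hpf libraries. Low levels do not exclude a difference between genotypes. Log2 fold changes of the tested liver genes at 48 hpf ran from -8.65 to 1.05, and -8.65 was also the lowest value over all genes tested. Of 8 hatching gland genes, 3 were higher and 1 lower at 48 hpf, and their sum was 976 to 1032 CPM in mutants and 654 to 829.6 CPM in siblings. The gene ctslb is in both this list and that of the yolk syncytial layer, so the lists are not independent. At 48 hpf ctslb measured 12.3, 14.3 and 13.3 CPM in mutants and 4.82, 6.31 and 7.41 CPM in siblings. At 24 hpf edgeR and limma-voom called 0 of the 8 hatching gland genes, DESeq2 1, and 4 had an unadjusted p under 0.05. Their sums at 24 hpf were 2197 to 2241 CPM in mutants and 1958 to 2100 CPM in siblings. Among 15 genes each, 1 was higher at 48 hpf for the pronephros (305 to 335 CPM in mutants and 266 to 303 CPM in siblings) and 1 for endothelium (367 to 398 CPM in mutants and 323 to 354 CPM in siblings). At 24 hpf 1 pronephros gene was lower, with overlapping sums (339 to 402 CPM in mutants and 368 to 383 CPM in siblings). Of 14 epidermis genes 1 was lower at 24 hpf (26246.5 to 27636.6 CPM in mutants and 27999.5 to 34229.3 CPM in siblings). Over all genes, 4.26% were called higher and 1.80% lower at 48 hpf, and 1.50% higher and 2.33% lower at 24 hpf. The part of these tissues in the P450 results was not tested.

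Outside the array, cyp2r1, which encodes a vitamin D 25-hydroxylase in mammals, was called lower in mutants at 24 hpf. It measured 10.7, 9.56 and 6.62 CPM in mutants and 14.6, 10.9 and 10.99 CPM in siblings at 48 hpf. The groups did not overlap there, as for 22.5% of all genes tested, and cyp2r1 was not called (-0.44 ± 0.29, adjusted p = 0.481). At 24 hpf cyp2r1 measured 0.995, 2.04, 1.01 and 2.09 CPM in mutants, against 2.51, 3.16, 2.79 and 4.47 CPM in siblings, and fell (-1.08 ± 0.28, adjusted p = 0.0384). That call was lost in 10 of 24 alternatives, limma-voom (adjusted p = 0.101), library size only (adjusted p = 0.0714) and the libraries of the stage alone (adjusted p = 0.0744) among them (range 0.00463 to 0.131). It was also lost without sibling replicate 2, 3 or 4 or mutant replicate 1 or 3 of that stage, without mutant replicate 2 of 48 hpf, or without both libraries of low mitochondrial share (adjusted p = 0.0561). The RefSeq span of cyp2r1 overlaps calca.

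The genes cyp2x7 and cyp2v1 were called higher in mutants at 48 hpf. The gene cyp2x7, of a fish subfamily, measured 23.0, 14.7 and 18.01 CPM in mutants, against 11.3, 8.78 and 13.5 CPM in siblings at 48 hpf (0.72 ± 0.18, adjusted p = 0.0202). At 24 hpf cyp2x7 measured 20.02, 15.4, 17.8 and 19.5 CPM in mutants and 15.5, 14.6, 13.5 and 13.5 CPM in siblings (0.35 ± 0.15, adjusted p = 0.257). Its call was lost with the libraries of the stage alone (adjusted p = 0.1196), with a block added to these (adjusted p = 0.0530), and without sibling replicate 2 (adjusted p = 0.0851) or mutant replicate 1 (adjusted p = 0.121; range from 0.00493). At 24 hpf the stage's libraries with a block called cyp2x7 higher (0.36, adjusted p = 0.0428). The gene cyp2v1 measured 13.5, 16.2 and 13.9 CPM in mutants, against 9.57, 10.9 and 6.29 CPM in siblings at 48 hpf (0.71 ± 0.20, adjusted p = 0.0469), a call that was lost in 18 of 24 alternatives (range 0.0184 to 0.161; 0.0796 without both libraries of low mitochondrial share). At 24 hpf cyp2v1 measured 11.3, 13.4, 12.6 and 12.9 CPM in mutants and 9.09, 6.83, 9.12 and 11.6 CPM in siblings (0.45 ± 0.18, adjusted p = 0.188), and the stage's libraries with a block called it higher there (0.49, adjusted p = 0.0448). Its RefSeq span overlaps those of cyp2ad2, cyp2ad3 and cyp2p6, in a later assembly than the one used for counting. Whether their exons overlap in the annotation used for counting is not known. The library kit does not mark the strand, so any shared reads could not be told apart by strand.

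The gene cyp2v1 belongs to a row of 11 genes, running from cyp2n13 through the cyp2ad and cyp2p genes to cyp2j20, most of which RefSeq also lists under cyp2j names. Mammalian CYP2J enzymes turn arachidonic acid into epoxides. All 11 were tested. At 48 hpf 1 was called (cyp2v1), and at 24 hpf edgeR, DESeq2 and limma-voom each called 0, while 4 had an unadjusted p under 0.05. Beside the 6.06% and 3.82% of all genes that edgeR called at 48 and 24 hpf, these counts do not set the row apart. In this row cyp2ad6 was below the siblings in all 4 mutant libraries of 24 hpf without passing the test, at 0.513, 0.642, 0.570 and 0.327 CPM in mutants and 1.40, 0.828, 1.46 and 1.52 CPM in siblings (-1.33 ± 0.45, adjusted p = 0.123). Over all genes tested, 13.6% had separate groups at 24 hpf, in either direction. The row of 8 cyp2k genes had 5 tested members. Of these edgeR, DESeq2 and limma-voom called 0 at either stage, and 0 had an unadjusted p under 0.05. With 5 genes, and 6.06% and 3.82% of all genes called, counts of 0 do not set this row apart either.

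The member with most counts, cyp2y3, was not called in mutants. It measured 74.5, 75.3 and 68.2 CPM in mutants and 101, 61.5 and 84.2 CPM in siblings at 48 hpf (-0.18 ± 0.19, adjusted p = 0.700). At 24 hpf cyp2y3 measured 155, 107, 93.3 and 101 CPM in mutants and 194, 154, 147 and 129 CPM in siblings, with mutant replicate 1 among the siblings (-0.45 ± 0.17, adjusted p = 0.161). Without that library cyp2y3 was called lower (adjusted p = 0.0399). The replicate block also called it lower, with all libraries (adjusted p = 0.0224) or those of the stage (adjusted p = 0.00122). No other alternative called cyp2y3.

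In family 3 both called genes rose in mutants at both stages. The cyp3c genes are fish relatives of the mammalian CYP3A enzymes, which oxidize steroids and many drugs. At 48 hpf cyp3c3 measured 6.44, 7.29 and 12.3 CPM in mutants, against 1.80, 0.390 and 0 CPM in siblings (3.62 ± 0.70, adjusted p = 0.00358). At 24 hpf cyp3c3 measured 12.6, 7.06, 16.9 and 9.94 CPM in mutants, against 1.84, 1.39, 1.24 and 1.19 CPM in siblings (3.04 ± 0.57, adjusted p = 0.00470). The lowest mutant library was well above the highest sibling library at either stage, and sibling replicate 3 of 48 hpf, a library of low mitochondrial share, held 0 counts. Without both such libraries the rise was still called at 48 hpf (adjusted p = 0.00164) and at 24 hpf (adjusted p = 2.69e-04). With the libraries of the stage alone the call at 48 hpf was lost (adjusted p = 0.0670, or 0.0576 with a block; range from 1.19e-04).

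The gene cyp3c1 rose less and with a narrower spread. At 48 hpf cyp3c1 measured 25.4, 21.1 and 26.9 CPM in mutants, against 13.8, 14.3 and 13.7 CPM in siblings (0.81 ± 0.13, adjusted p = 6.87e-04). At 24 hpf cyp3c1 measured 26.8, 22.9, 26.4 and 21.3 CPM in mutants, against 15.4, 17.9, 15.6 and 14.99 CPM in siblings (0.61 ± 0.11, adjusted p = 0.00368). Both calls held in all 24 alternatives, and the groups did not overlap. The effects on cyp3c1 and cyp3c3 were not shown to differ between stages (0.20 ± 0.17 and 0.58 ± 0.87, 48 minus 24 hpf).

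Their neighbour cyp3c4 did not pass the test. It measured 1.28, 0.942 and 1.78 CPM in mutants and 1.28, 0.520 and 0.367 CPM in siblings at 48 hpf (0.89 ± 0.53, adjusted p = 0.414). At 24 hpf cyp3c4 measured 2.28, 2.65, 2.33 and 1.54 CPM in mutants and 1.02, 0.532, 1.43 and 0.487 CPM in siblings, with all mutant libraries above all sibling libraries (1.34 ± 0.45, adjusted p = 0.122). Of all genes tested, 13.6% had separate groups at 24 hpf, in either direction. DESeq2 (adjusted p = 0.0399) and the stage's libraries with a block (adjusted p = 0.0169) called cyp3c4 higher at 24 hpf. The remaining member, cyp3a65, a zebrafish counterpart of mammalian CYP3A genes, stayed at 0.0583 to 1.42 CPM over the 14 libraries and was called at neither stage (0.54 ± 0.85 at 48 hpf and 0.31 ± 0.77 at 24 hpf).

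In family 4 cyp4v8, which RefSeq names cyp4v2a, was detected in siblings of 48 hpf and not in mutants of 48 hpf. Human CYP4V2 hydroxylates fatty acids and is mutated in Bietti crystalline dystrophy of the retina. At 48 hpf cyp4v8 held 0, 0 and 0 counts in the mutant libraries, against 40, 30 and 34 counts in the sibling libraries. At 24 hpf cyp4v8 held 0, 0, 0 and 3 counts in mutants and 0, 0, 0 and 0 counts in siblings. A floor of 3 counts over the mutant group bounds counting error only if counts are independent, and the sibling counts here are all even. Against that floor cyp4v8 was 34.3-fold lower in mutants at 48 hpf, and the true limit may be smaller. It passed the filter on low counts only through the siblings of 48 hpf, the group where it is high, so its test (adjusted p = 0.0158; 0.0133 with no filter) is given as a description and not as support. DESeq2 did not call it (adjusted p = 0.163). The call was also lost without mutant replicate 1, 2 or 3 of 48 hpf (adjusted p = 0.0613, 0.0596 and 0.0635; range from 7.97e-04), fits that keep 2 mutant libraries, both at 0. Markers of brain and eye, where the fish retina belongs, summed to 1829 to 1993 CPM in mutants and 1806 to 2230 CPM in siblings at 48 hpf, with 5 of 15 tested genes lower in mutants, and their part in the result was not tested.

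In the RefSeq assembly cyp4v8 lies on the chromosome that carries mttp, with 95 protein-coding genes between them, and so do cyp2u1 and cyp3a65, with 624 and 1025 genes between. An effect of the mttp mutation and one of other alleles carried on the same chromosome cannot be told apart in these groups. Over all genes matched by symbol, 7.25% of 800 tested genes on that chromosome were called at 48 hpf and 6.91% of 17186 on the others. At 24 hpf the shares were 4.50% and 4.59%. A share over a whole chromosome could miss alleles that act only near mttp, so these shares do not bear on cyp4v8.

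The other family 4 genes were not called in mutants. The gene cyp4v7, which RefSeq names cyp4v2b, measured 2.32, 2.88 and 2.85 CPM in mutants and 6.92, 1.79 and 9.93 CPM in siblings at 48 hpf, where sibling replicate 2 fell below the mutants and the other 2 sibling libraries above (-1.22 ± 0.49, adjusted p = 0.189). The fit without sibling replicate 2 was the only alternative that called cyp4v7 lower (adjusted p = 0.0267). At 48 hpf cyp4t8, a fish family 4 gene, measured 2.78, 2.74 and 1.97 CPM in mutants and 1.22, 1.63 and 2.48 CPM in siblings (0.47 ± 0.22, adjusted p = 0.285). Without sibling replicate 3 (adjusted p = 0.0386) or both libraries of low mitochondrial share (adjusted p = 0.0257) cyp4t8 was called higher. At 24 hpf cyp4f3, of the subfamily that degrades leukotrienes in mammals, measured 0.577, 0.233, 0.259 and 0.589 CPM in mutants and 0.191, 0.177, 0.0621 and 0.0608 CPM in siblings, with no overlap (1.72 ± 0.75, adjusted p = 0.255). At 24 hpf a library held at most 18 counts of cyp4f3, and 13.6% of all genes tested had no overlap.

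**Figure D4:**
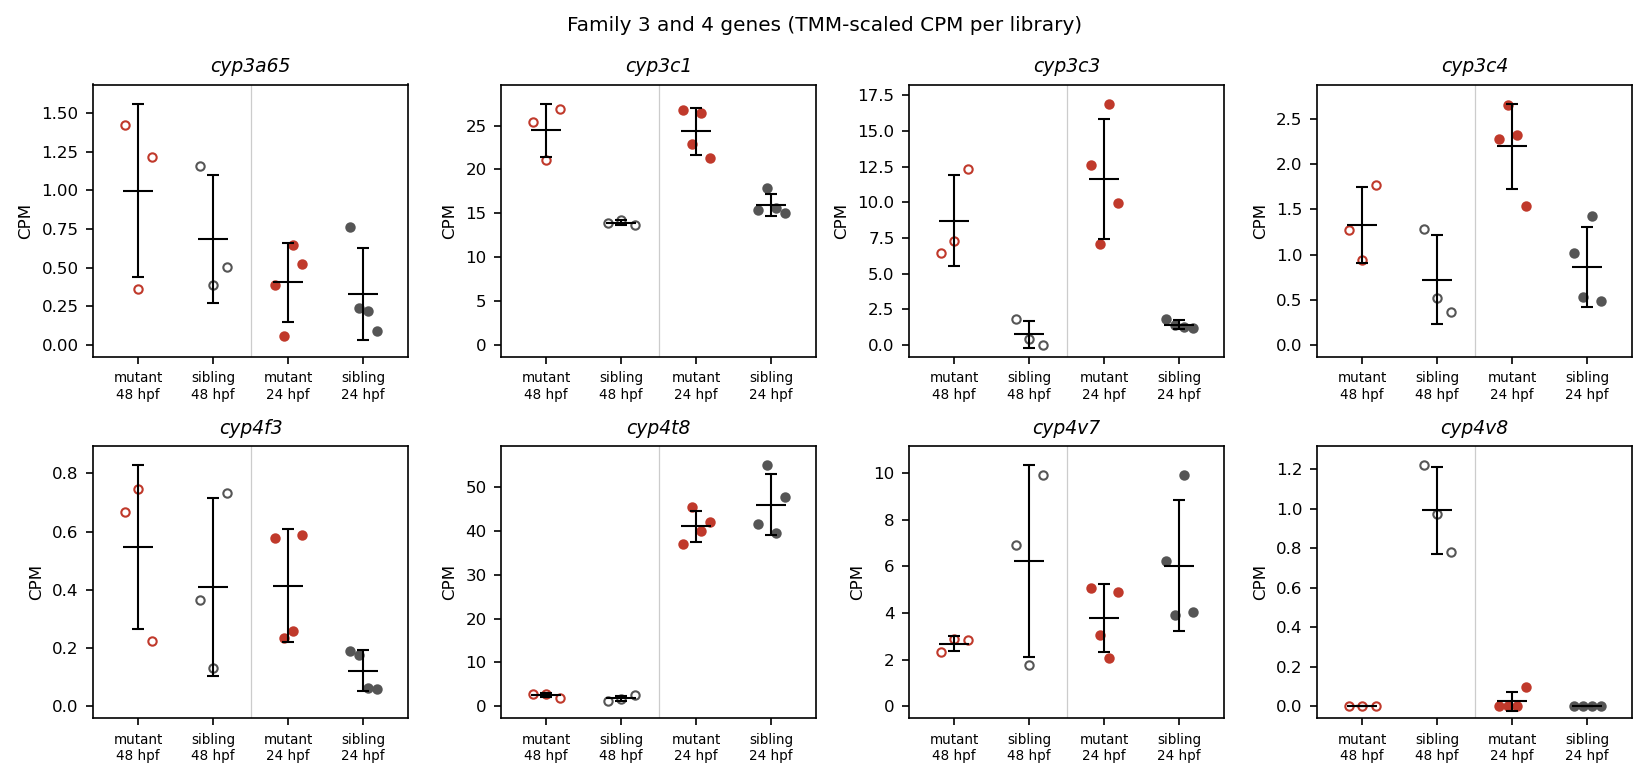
CPM of the family 3 genes (upper row) and family 4 genes (lower row) in each library (points; bars are mean and SD; mutants red, siblings grey, 48 hpf open, 24 hpf filled). Mutants lie above siblings for cyp3c1 and cyp3c3 at both stages, cyp4v8 is above 0.0981 CPM in the 48 hpf siblings alone, and cyp4t8 is near 2 CPM at 48 hpf and near 40 CPM at 24 hpf in both genotypes.

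By separation of the libraries, 7 of 46 tested members lay above and 3 below the siblings in all mutant libraries at 48 hpf. At 24 hpf 5 lay above and 7 below. Over all genes tested, 22.5% and 13.6% were separated in this way, in either direction, at 48 and 24 hpf. Of the 3 members below at 48 hpf, cyp4v8 entered the test only through the siblings of that stage. With both libraries of low mitochondrial share left out, 7 members and 1858 of 24867 genes tested were called at 48 hpf. At 24 hpf that fit called 8 members and 1134 genes. With all libraries the counts were 8 members and 1480 of 24424 genes at 48 hpf, and 9 members and 934 genes at 24 hpf.

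Between the stages members moved in both directions in both genotypes. Stage equals the batch label, so development and batch cannot be told apart. In mutants 6 tested members were higher and 5 lower at 48 than at 24 hpf, or 23.9%, beside 43.2% of all genes (23.6% higher, 19.6% lower). In siblings 6 were higher and 10 lower, or 34.8%, beside 52.4% of all genes (26.2% higher, 26.3% lower). The 6 include cyp4v8 and cyp2n13, each with 0 counts in the siblings of 24 hpf. Both entered the test only through libraries of 48 hpf, where they are high, so their calls are a description and not support. The gene cyp4t8 fell most: in siblings it averaged 1.77 ± 0.642 CPM at 48 hpf (SD, n = 3) and 45.9 ± 6.95 CPM at 24 hpf (n = 4), a change of -4.67 ± 0.22, adjusted p = 2.40e-11. In mutants it averaged 2.50 ± 0.456 CPM at 48 hpf and 41.1 ± 3.53 CPM at 24 hpf (-4.04 ± 0.21, adjusted p = 1.37e-10).

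The gene cyp2r1 rose with stage, averaging 8.95 ± 2.09 CPM at 48 hpf and 1.53 ± 0.615 CPM at 24 hpf in mutants (2.55 ± 0.29, adjusted p = 1.85e-06), and 12.2 ± 2.12 CPM at 48 hpf and 3.23 ± 0.867 CPM at 24 hpf in siblings (1.91 ± 0.28, adjusted p = 2.01e-05). So did cyp1b1 (mutants 2.39 ± 0.32, siblings 1.85 ± 0.32) and cyp1c2 (mutants 2.15 ± 0.42, siblings 3.01 ± 0.44), each with an adjusted p of at most 4.80e-04. The rise of cyp1c1 was called in mutants (2.42 ± 0.25, adjusted p = 4.98e-07) and not in siblings (-0.21 ± 0.23, adjusted p = 0.476), and the test of that difference is the one given for its mutant effect above. In siblings cyp1a fell by 2.28 on the log2 scale (SE 0.53, adjusted p = 0.00171) and cyp2p7, of the cyp2j row, by 3.23 (SE 0.80, adjusted p = 0.00255). In mutants cyp2aa3 changed by -2.29 ± 0.18, adjusted p = 1.82e-08, and cyp2k16, of the cyp2k row, by -0.84 ± 0.28, adjusted p = 0.0233. The call of cyp2k16 was lost without mutant replicate 3 of 24 hpf (adjusted p = 0.0617) or mutant replicate 2 of 48 hpf (adjusted p = 0.144; range from 0.00701).

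Within the cyp2aa array the siblings' RNA of cyp2aa4, cyp2aa8 and cyp2aa9 fell steeply with stage (-2.18 ± 0.21, -1.35 ± 0.18 and -2.27 ± 0.20, adjusted p of at most 7.33e-06). In mutants the same genes, already low at 24 hpf, were not called (-0.31 ± 0.20, -0.041 ± 0.17 and 0.16 ± 0.19). For these 3 genes the stage contrasts share libraries with the mutant contrasts, so they restate the differences between stages given above.

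Enzymes that supply or use the same electrons, haem and substrates were counted from lists chosen with earlier results of these data known. Of 28 P450 redox partner and haem genes, all tested, 4 rose in mutants at 48 hpf, or 14.3%, beside 6.06% of all genes. At 24 hpf edgeR called 0, beside 3.82% of all genes. There 5 had an unadjusted p under 0.05, DESeq2 called 2 and limma-voom 0. The haem oxygenase gene hmox1a (1.0999 ± 0.14, adjusted p = 7.64e-05), the cytochrome b5 gene cyb5b (0.63 ± 0.084, adjusted p = 1.17e-04) and the P450 reductase gene porb (0.71 ± 0.13, adjusted p = 0.00190) rose at 48 hpf, and the effects on hmox1a and cyb5b differed between stages (1.54 ± 0.18, adjusted p = 1.34e-04, and 0.57 ± 0.11, adjusted p = 0.00749). The list's median log2 fold change was 0.20 at 48 hpf and -0.091 at 24 hpf.

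Of the eicosanoid pathway, 34 of 37 genes were tested. At 48 hpf 2 rose and at 24 hpf 2 fell, or 5.88% at each stage. Over all genes 6.06% were called at 48 hpf and 3.82% at 24 hpf. The list's medians were 0.10 at 48 hpf and 0.0083 at 24 hpf. At 48 hpf the prostaglandin D synthase gene ptgdsa rose (1.76 ± 0.30, adjusted p = 0.00140), as did ephx2, which hydrolyses the epoxides that P450 enzymes make (0.61 ± 0.16, adjusted p = 0.0297; lost in 5 of 24 alternatives, range 0.00412 to 0.117). The falls at 24 hpf were of ptgesl, related to a prostaglandin E synthase (-0.50 ± 0.13, adjusted p = 0.0371) and lta4h, the leukotriene A4 hydrolase (-0.38 ± 0.096, adjusted p = 0.0374), lost in 11 and 12 of 24 alternatives. For lta4h the adjusted p without both libraries of low mitochondrial share was 0.0649.

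Of 25 receptors and factors that control P450 genes, 24 were tested. At 48 hpf 5 rose and 3 fell, or 33.3%, beside 6.06% of all genes. At 24 hpf 1 fell, or 4.17%, beside 3.82% of all genes. The medians were 0.27 at 48 hpf and 0.14 at 24 hpf. At 48 hpf cebpb, a liver and stress factor, changed by 1.19 ± 0.17, adjusted p = 2.00e-04, pparab, a fatty acid receptor, by 0.99 ± 0.15, adjusted p = 3.51e-04, and hnf4b, a relative of the liver receptor Hnf4a, by 0.96 ± 0.17, adjusted p = 0.00207. At 24 hpf nr0b2a, encoding a nuclear receptor without a DNA-binding domain, was lower in mutants (-1.64 ± 0.10, adjusted p = 4.08e-08). The pregnane X receptor gene nr1i2, which controls CYP3A genes in mammals, measured 9.86, 8.14 and 11.6 CPM in mutants and 8.05, 9.62 and 5.76 CPM in siblings at 48 hpf (0.34 ± 0.20, adjusted p = 0.395). At 24 hpf nr1i2 changed by 0.31 ± 0.17, adjusted p = 0.405.

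Among P450 genes of families 5 and above, 25 of 29 were tested. In mutants 2 rose and 1 fell at 48 hpf, or 12%, beside 6.06% of all genes. At 24 hpf 2 fell, or 8%, beside 3.82% of all genes. The medians were -0.14 at 48 hpf and -0.029 at 24 hpf. The sterol demethylase gene cyp51 measured 55.5, 49.8 and 62.0 CPM in mutants, against 20.1, 23.6 and 21.2 CPM in siblings at 48 hpf (1.37 ± 0.13, adjusted p = 4.01e-06). The gene cyp27c1, a retinoid desaturase, rose as well (0.99 ± 0.15, adjusted p = 4.64e-04). The vitamin D 1-alpha-hydroxylase gene cyp27b1 fell at 48 hpf (-1.07 ± 0.30, adjusted p = 0.0412; lost in 9 of 24 alternatives, range 0.00262 to 0.201; 0.0551 with both libraries of low mitochondrial share left out). At 24 hpf cyp27b1 measured 1.06, 0.992, 2.02 and 2.26 CPM in mutants, against 3.43, 4.55, 5.96 and 5.11 CPM in siblings (-1.59 ± 0.28, adjusted p = 0.00241). At 24 hpf cyp11a1, which cleaves the cholesterol side chain, fell (-3.11 ± 0.69, adjusted p = 0.0159; lost in 6 of 24 alternatives, range 9.64e-05 to 0.0704).

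Many conjugating enzymes (glucuronosyl-, sulfo- and glutathione transferases) act on the products of P450 enzymes. The list was taken by ugt, sult and gst symbols alone, so a member such as ugt8 need not act on such products. Of its 69 genes 53 were tested. At 48 hpf 2 rose and 1 fell, and at 24 hpf 3 fell, or 5.66% at each stage. Over all genes 6.06% were called at 48 hpf and 3.82% at 24 hpf. The list's medians were 0.17 at 48 hpf and -0.051 at 24 hpf. The falls at 24 hpf were of ugt1b5 (-0.88 ± 0.14, adjusted p = 8.97e-04), ugt1b1 (-0.92 ± 0.17, adjusted p = 0.00431) and ugt1b7 (-1.88 ± 0.48, adjusted p = 0.0376), glucuronosyltransferases of one locus whose reads may be shared. At 48 hpf ugt8 (0.57 ± 0.11, adjusted p = 0.00469) and gstm.1 (0.53 ± 0.14, adjusted p = 0.0258) rose and gstk1 fell (-0.90 ± 0.22, adjusted p = 0.0203). The calls of ugt1b7, gstm.1 and gstk1 were lost in 9, 7 and 7 of 24 alternatives. Without both libraries of low mitochondrial share the adjusted p was 0.0558 for gstm.1 and 0.0545 for gstk1.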

How the data were processed

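RNA was measured in 14 libraries of whole embryos. The authors deposited one table of whole-number gene counts that had not been normalized. The submitters' processing notes name the build GRCz11 with featureCounts 2.0.6, STAR 2.7.10b, FastQC 0.12.1 and Trim Galore 0.6.10. Which annotation and strand setting they used, and how multi-mapped reads were counted, is not given in the sources used here. Per the labels' protocols, total RNA extracted with TRIzol went into NEBNext Ultra libraries. Of the counts from 2 to 51 in a library, 77.0% to 87.2% were even, so counts may not be independent molecules.

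The test was edgeR's quasi-likelihood F test (glmQLFit and glmQLFTest, edgeR 4.0.16 in R 4.3.3, with limma 3.58.1), with TMM factors after filterByExpr (minimum count 10), which kept 24424 of 36109 genes. All 14 libraries were fitted as 4 groups with 10 residual degrees of freedom. P-values were adjusted over all genes by Benjamini and Hochberg, and the SE is the log2 fold change over the square root of F. Alternatives were DESeq2 1.42.0, limma-voom, RLE factors, library size only, other filters, the stage's libraries only, a replicate block, and leaving out each library or both of low mitochondrial share, which makes 24 per mutant contrast; a 2-fold minimum was counted apart. The fit was also run on simulated independent counts, without pairing or an excess of even counts. That run does not bear on how well the p-values hold in these data, and its outcome is not used here. Named were mttp, family 1, all members called in mutants, the 3 greatest rises and falls with stage (average log2 CPM of at least 0), the 5 members with most counts, and up to 3 called genes per list; others named were chosen after their values were seen. The members and lists were chosen with earlier results of these data known. Gene order and spans came from the RefSeq table of GRCz12tu, used for names and neighbours only; 53 of 54 members matched, some by synonym. Of the listed names, 5 were not found. A floor of 3 counts was used against groups at 0, and covers counting error only, as far as counts are independent.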

Additional observations from a re-analysis of the deposited data

Results flagged for a closer look

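For 4 members the mutant effect at 48 hpf differed from that at 24 hpf by the test of the difference itself. The differences, 48 minus 24 hpf on the log2 scale, were 2.63 for cyp1c1, 2.43 for cyp2aa9, 1.87 for cyp2aa4 and 1.31 for cyp2aa8. All 4 had mutants below siblings at 24 hpf.

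Single libraries of 24 hpf lay far from the others of their group for 3 members, by the gap to the nearest library over the range of the group. The gene cyp1d1 measured 9.82 CPM in sibling replicate 1 of 24 hpf, where the next library had 6.14 CPM. In mutants of 24 hpf cyp2aa4 measured 35.8 CPM in replicate 3, where the next library had 28.0 CPM. In the same group cyp4v8 measured 0.0981 CPM in replicate 4, which is 3 counts, and 0 in the other libraries. Among the 40 groups examined chance alone flags about 1 in 20, a rate that does not hold where all other libraries are at 0. There any count is flagged by construction, so the flag of cyp4v8 carries no weight.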

How the results depend on the processing

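Of the calls of members in mutants, 3 of 8 at 48 hpf (cyp2aa3, cyp2aa7 and cyp3c1), 8 of 9 at 24 hpf (all but cyp2r1) and 4 of 4 between stages were made under every alternative run, the 2-fold minimum aside. At 48 hpf 8 members and 1480 genes were called. The stage's libraries alone called 5 and 909, and a replicate block with these 5 and 1030. Leaving out single libraries gave 4 to 8 members and 946 to 1632 genes. There were 4 members and 946 genes without mutant replicate 1, and 5 members and 1104 genes without mutant replicate 2. At 24 hpf 9 members and 934 genes were called, with DESeq2 1621 genes and with a block and the stage's libraries 2580; leaving out single libraries gave 8 to 9 members and 524 to 1727 genes, lowest without mutant replicate 4 (524), then mutant replicate 1 (554) or 3 (605) and sibling replicate 2 (580) or 3 (614) of 24 hpf, and highest without sibling replicate 3 of 48 hpf. For the difference between stages, 4 members and 774 genes became 1374 genes with DESeq2, 1187 with a replicate block and 1319 with the low mitochondrial share libraries left out; single libraries left out gave 4 to 6 members and 472 to 1428 genes, the lowest without mutant replicate 4 of 24 hpf, then mutant replicate 1 of 48 hpf (487), and the highest without sibling replicate 3 of 48 hpf. For 48 against 24 hpf, leaving out single libraries gave 8 to 13 members and 8930 to 11725 genes in mutants, and 16 to 18 members and 11805 to 13051 genes in siblings. Requiring at least a 2-fold change left 4 members and 555 genes at 48 hpf, 286 genes at 24 hpf, 368 for the difference, 7 members and 4978 genes with stage in mutants and 6572 genes in siblings; fewer genes meet this rule by construction, and for the other changes of counts the cause was not tested. Library size only moved the median of all genes by 0.101 at 24 hpf (log2).

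Among the gene values recomputed under the alternatives, signs turned for cyp1b1 and cyp1d1, whose values were not called. With single libraries left out, cyp1b1 at 24 hpf ran from -0.48 to 0.0250 (without sibling replicate 1), cyp1d1 at 48 hpf from -0.46 to 0.50 (positive without sibling replicate 1 or mutant replicate 2 or 3), and cyp1d1 between stages from -0.16 (without mutant replicate 1 of 48 hpf) to 0.80. With limma-voom cyp1d1 at 48 hpf was 0.0215. Same-numbered mutant and sibling libraries deviated together with correlations of 0.0874 to 0.273 at 48 hpf and 0.0677 to 0.306 at 24 hpf, and every library correlated best with its own number, a hint of pairing that the labels do not state. At 24 hpf the block with the stage's libraries called 13 of 37 members tested, 6 higher and 7 lower, and 2580 of 22163 genes. With the replicate block and all libraries, 9 members and 1925 genes were called at 48 hpf, and 10 members and 1371 genes at 24 hpf. For the difference that fit called 4 members and 1187 genes. No block was fitted for 48 against 24 hpf, since the numbers lie within a stage.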
